A study of Mus musculus with 6 samples.

Results

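The genes described here make cholesterol and fatty acids: 33 were named as members, 18 of the sterol branch and 15 of the fatty acid branch. Of these, 32 were measured among 18193 genes, each by its brightest probe set, that is, the set of short probes for 1 transcript with the highest mean over the 6 arrays among those assigned to a single gene symbol. All 18 sterol genes and 14 fatty acid genes were measured, and the expression of Acsl1 was not analysed here. RNA of whole lenses was measured on Affymetrix arrays, 1 array for each of 3 transgenic and 3 wild-type samples. All 6 samples were Balb/c mice, 2 days old. Per the design text 12 lenses of each genotype were used, and how they were shared out over the 3 replicates is not stated. The labels name neither the transgene nor a promoter that drives it. Whether the replicates were separate animals is not stated, so p-values cover no more than the spread of these 6 samples, part of which can be technical.

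Cholesterol is built from acetyl units through mevalonate, farnesyl pyrophosphate, squalene and lanosterol. Long-chain fatty acids are built from the same acetyl units by fatty acid synthase, then elongated, desaturated and activated to acyl-CoA. Transcription factors of the SREBP family, encoded by Srebf1 and Srebf2, are released from the endoplasmic reticulum when sterol is scarce and switch on both sets of genes, Srebf2 with a preference for sterol genes and Srebf1 for fatty acid genes. The membranes of lens fiber cells are known to be very rich in cholesterol and sphingomyelin, and inherited defects of sterol synthesis can cause cataract.

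In transgenic lenses 4 of the 18 sterol genes fell and none rose, while 1 of the 14 fatty acid genes rose and none fell. The 4 were Cyp51, Dhcr7, Fdft1 and Pmvk, which fell by 0.38 to 0.67 on the log2 scale, and the 1 was Elovl6, which rose by 0.62. Over all 18193 genes, 2.61% were called lower and 1.93% higher (limma, adjusted p under 0.05), 4.55% in all. At an unadjusted p under 0.05, limma put 8 sterol genes lower and 0 higher, and 3 fatty acid genes higher and 0 lower, where 10.9% of all genes were lower and 11.5% higher. The difference between genotypes was below 0 for 17 of the 18 sterol genes, with a median of -0.19, and for 5 of the 14 fatty acid genes, with a median of 0.15. Over all genes 47.7% of differences were below 0, and the median was 0.011. Every transgenic array lay below every wild-type array for 9 sterol genes, a pattern found in 13.5% of all genes. The opposite pattern, seen in 15.3% of all genes, held for 3 fatty acid genes and for no sterol gene.

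The calls were small changes, near the threshold for all but Cyp51 (limma adjusted p = 0.0110). Each was lost in some of the fits with 1 array left out. With each array left out in turn, which leaves fewer arrays to test with, 0 to 3 sterol genes were lower and no fatty acid gene was higher. Further probe sets also limited the sterol pattern. Of 18 further sterol probe sets above the median of all probe sets, for 11 of the genes, 8 were below 0. Fatty acid genes had 12 such probe sets, and 3 were below 0. Further probe sets took the direction of the gene's brightest one in 44.4% of cases for sterol members, 66.7% for fatty acid members and 61.5% over all genes. When all probe sets of a gene were averaged, Dhcr7 and Pmvk, which have 1 probe set each, were the 2 sterol genes still called lower, no fatty acid gene was called higher, and the sterol median was -0.076.

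**Figure D1:**
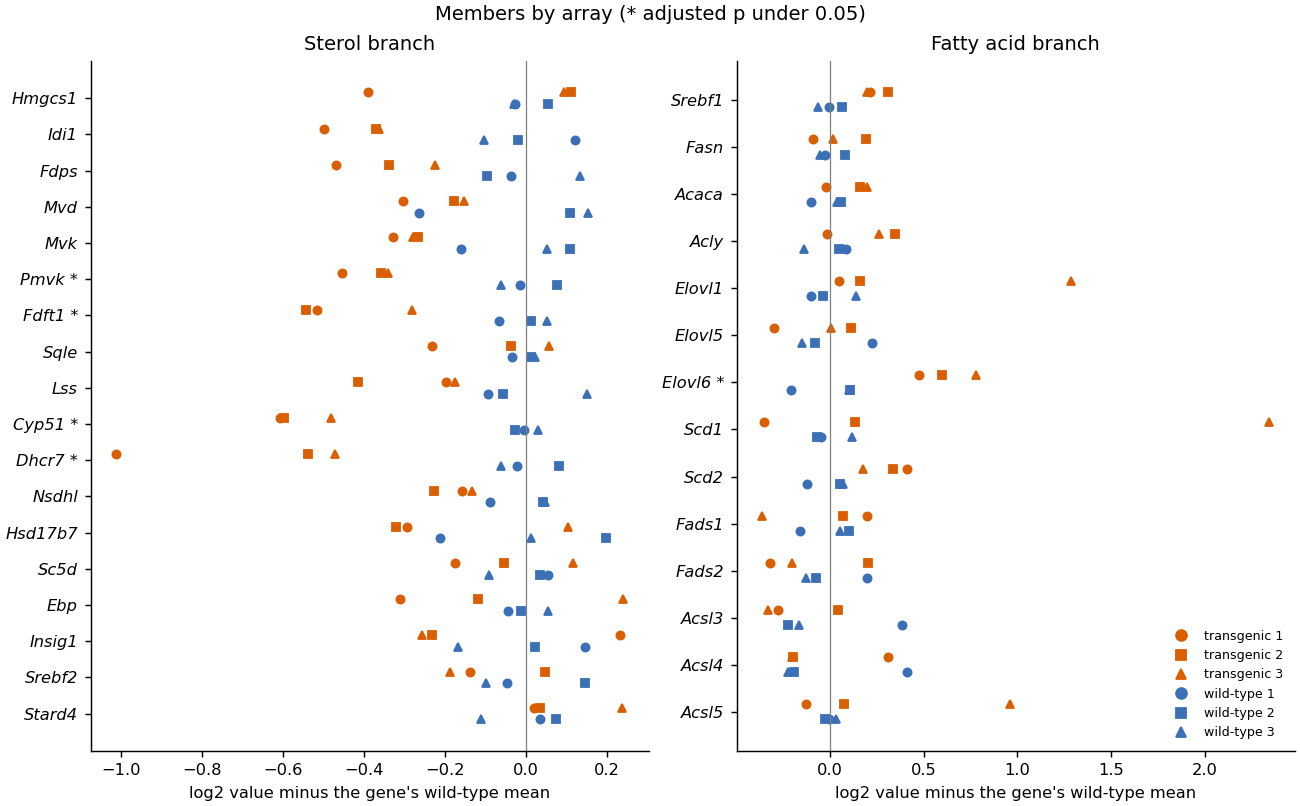
Each point is 1 array, placed by its log2 value minus the gene's mean in wild-type lenses, with transgenic arrays in orange above wild-type arrays in blue, and stars marking genes with a limma adjusted p under 0.05. For Cyp51, Dhcr7, Fdft1 and Pmvk all orange points lie left of the blue ones, for Elovl6 they lie right, and Scd1, Elovl1 and Acsl5 each have a single high orange point, transgenic replicate 3.

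The promoters of the members show what the sterol genes share in sequence. RefSeq promoter windows of GRCm38.p6, 250 bases before to 50 after a start site, were matched for 25 of the 32 measured members, 14 sterol and 11 fatty acid genes. Both strands were searched for the sterol regulatory element TCACNCCAC, the NF-Y box CCAAT, the GC box GGGCGG and the E box CACGTG, and of 112 matches in members' windows 1 pair of different motifs overlapped. The NF-Y box stood in at least 1 window of all 14 sterol genes, 7 of 11 fatty acid genes (63.6%) and 42.0% of 14452 tested genes with a window. Counted by window, it stood in 82.4% of sterol windows, 56.2% of fatty acid windows and 37.4% of all windows. Pmvk and Dhcr7 have further windows, which did not hold it. The GC box stood in 13 sterol genes (92.9%), 6 fatty acid genes (54.5%) and 57.3% of tested genes, and the E box in 4, in 1 and in 10.2%. The sterol regulatory element in this strict form was found in Hmgcs1 alone among the 25, and in 1.46% of tested genes. Acsl1, not measured and so outside the 25, also held it, in 1 of its 2 windows. Both Acsl1 windows are included in the shares by window and in the 112 matches. Counted by window, the element stood in 5.88% of sterol windows, 6.25% of fatty acid windows and 1.24% of all windows. Matches are a description of letters, not of bound sites.

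The 250 bases before the start are printed for 3 of the sterol genes that fell, for Hmgcs1, which holds the sterol regulatory element, and for Elovl6, the fatty acid gene that rose. Where a gene has several windows, the one with the most matches is given. Capitals mark a match to one of the 4 motifs or to its reverse complement (ATTGG for the NF-Y box, CCGCCC for the GC box).
Cyp51, chr5:4104698-4104947, strand minus: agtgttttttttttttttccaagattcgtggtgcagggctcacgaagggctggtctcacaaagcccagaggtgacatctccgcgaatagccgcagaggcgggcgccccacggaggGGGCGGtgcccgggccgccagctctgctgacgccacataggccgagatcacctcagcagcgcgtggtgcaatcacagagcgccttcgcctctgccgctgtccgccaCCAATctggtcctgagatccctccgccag
Dhcr7, chr7:143829964-143830213, strand plus: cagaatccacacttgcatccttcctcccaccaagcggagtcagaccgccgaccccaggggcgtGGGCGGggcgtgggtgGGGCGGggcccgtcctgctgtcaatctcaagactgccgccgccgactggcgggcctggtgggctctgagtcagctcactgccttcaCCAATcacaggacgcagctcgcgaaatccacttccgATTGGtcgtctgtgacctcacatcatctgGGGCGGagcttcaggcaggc
Pmvk, chr3:89454291-89454540, strand plus: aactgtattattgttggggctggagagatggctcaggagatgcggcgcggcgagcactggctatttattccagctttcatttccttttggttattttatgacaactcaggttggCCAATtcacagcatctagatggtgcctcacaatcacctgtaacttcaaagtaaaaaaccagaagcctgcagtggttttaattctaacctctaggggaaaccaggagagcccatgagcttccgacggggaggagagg
Hmgcs1, chr13:119690101-119690350, strand plus: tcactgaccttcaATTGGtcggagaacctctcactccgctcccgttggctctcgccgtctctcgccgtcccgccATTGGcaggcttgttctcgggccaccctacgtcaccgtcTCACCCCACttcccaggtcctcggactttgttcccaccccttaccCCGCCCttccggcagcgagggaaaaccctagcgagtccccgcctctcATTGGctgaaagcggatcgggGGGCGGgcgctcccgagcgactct
Elovl6, chr3:129532136-129532385, strand plus: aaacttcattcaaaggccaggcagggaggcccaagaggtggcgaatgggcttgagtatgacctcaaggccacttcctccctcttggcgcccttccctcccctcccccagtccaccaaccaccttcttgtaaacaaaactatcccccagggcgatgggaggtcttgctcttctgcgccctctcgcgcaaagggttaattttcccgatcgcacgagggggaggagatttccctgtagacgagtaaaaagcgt

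The Cyp51 and Dhcr7 stretches hold both NF-Y and GC boxes, and the Pmvk stretch holds a lone NF-Y box. No match to the 4 motifs was found in the Elovl6 stretch. Hmgcs1, with the richest stretch of the 5, was not called, as given below. These 5 genes were picked by their change or their motifs, and a relation between motif count and change was not tested. Fdft1, the other sterol gene called lower, had no window here.

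In the first steps, from acetyl units to farnesyl pyrophosphate, all 6 genes had differences below 0 and 1 was called, with a median of -0.32. Pmvk encodes phosphomevalonate kinase, which adds the phosphate that follows that of mevalonate kinase. It read 7.71, 7.80 and 7.82 in transgenic replicates 1 to 3, against 8.15, 8.24 and 8.10 in wild-type replicates 1 to 3 (log2 values). The groups did not overlap, and Pmvk fell by 0.38 ± 0.08 (SE; limma adjusted p = 0.0449), a 1.31-fold difference. Its call was lost with any 1 array left out (limma adjusted p from 0.0757 to 0.154), although the difference stayed between -0.42 and -0.35. Pmvk has a single probe set here.

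Idi1 encodes the isomerase that makes dimethylallyl pyrophosphate. Its values were 8.85, 8.98 and 8.98 in transgenic lenses, against 9.47, 9.33 and 9.24 in wild-type lenses, without overlap. The difference of -0.41 ± 0.09 (SE) was just short of the threshold (limma adjusted p = 0.0522). A second, dimmer probe set differed by 0.32, the other way.

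Fdps encodes farnesyl pyrophosphate synthase, at the branch point to sterols, dolichol and prenylated proteins. It averaged 9.57 ± 0.12 in transgenic and 9.91 ± 0.12 in wild-type lenses (SD, n = 3 each), a difference of -0.34 that was not called (limma adjusted p = 0.103). Mvk, encoding mevalonate kinase, differed by -0.29, and Mvd, encoding the decarboxylase that follows Pmvk, by -0.21. Neither was called, but a second probe set of each was also below 0, at -0.19 and -0.18. For Fdps and Mvk the groups did not overlap, and for Mvd they did.

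Hmgcs1 encodes the cytosolic synthase that supplies HMG-CoA. The gene read 10.26 in transgenic replicate 1 and 10.77 and 10.75 in replicates 2 and 3, against 10.63, 10.71 and 10.62 in wild-type lenses. The one low array set the sign of its difference of -0.061, which was 0.10 without that array. Its 95% interval ran from -0.39 to 0.26, and 2 of 3 further bright probe sets were above 0, at 0.28 and 0.15.

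At the squalene steps all 3 differences were below 0 and Fdft1 was called. Fdft1 encodes squalene synthase, the first enzyme committed to sterols. It read 9.23, 9.20 and 9.47 in transgenic lenses, against 9.68, 9.76 and 9.80 in wild-type lenses. The groups did not overlap, and Fdft1 fell by 0.45 ± 0.10 (SE; limma adjusted p = 0.0471), a 1.36-fold difference. The next brightest probe set differed by -0.42, but 2 dimmer ones differed by 0.19 and 0.36, and averaging all probe sets of Fdft1 gave -0.080 (limma adjusted p = 0.640). The call held without transgenic replicate 3 (adjusted p = 0.0312) and was lost without any other single array (up to 0.154).

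Lss, encoding lanosterol synthase, which closes the sterol rings, averaged 7.27 ± 0.13 in transgenic and 7.54 ± 0.13 in wild-type lenses (SD, n = 3 each). Its difference of -0.26 was not called (limma adjusted p = 0.202), and a second probe set differed by 0.18. Sqle, encoding squalene epoxidase, a rate-limiting enzyme of the pathway, differed by -0.071, with an interval from -0.29 to 0.15 and overlapping groups.

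After lanosterol, 2 of 6 genes fell and all 6 differences were below 0. Cyp51, which encodes the cytochrome P450 that removes a methyl group from lanosterol, had the smallest p of the 32 measured members. Its values were 7.66, 7.67 and 7.79 in transgenic lenses, against 8.26, 8.24 and 8.30 in wild-type lenses. The groups lay well apart, and Cyp51 fell by 0.56 ± 0.08 (SE; limma adjusted p = 0.0110), a 1.48-fold difference. A second bright probe set differed by -0.47 and a dimmer one, below the median over probe sets, by 0.15. Averaging the 3 gave -0.29, which was not called (limma adjusted p = 0.0810). The call was lost without transgenic replicate 2, wild-type replicate 2 or wild-type replicate 3 (limma adjusted p up to 0.0602).

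Dhcr7 encodes the reductase of the last step to cholesterol, and it had the largest fall of the members. It read 7.48, 7.95 and 8.02 in transgenic lenses, against 8.47, 8.57 and 8.43 in wild-type lenses. Transgenic replicate 1 was the lowest array, and the groups did not overlap without it either. Dhcr7 fell by 0.67 ± 0.15 (SE; limma adjusted p = 0.0442), and without that array the difference was -0.50 and was not called (adjusted p = 0.0578). With transgenic replicate 3 left out it passed (adjusted p = 0.0331), and without each of the other arrays it did not. Dhcr7 has a single probe set here.

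The other 4 genes after lanosterol were not called. Nsdhl, encoding a sterol dehydrogenase, differed by -0.17 without overlap of the groups. Hsd17b7, encoding a ketoreductase that acts with it, differed by -0.17 on the brightest probe set, but by 0.32 and 0.14 on 2 others. Ebp, encoding an isomerase, differed by -0.063, and Sc5d, encoding a desaturase that acts before Dhcr7, by -0.038. Both had their highest value in transgenic replicate 3, at 8.10 for Ebp and 7.63 for Sc5d.

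The regulators and the carrier of the sterol branch were not called. Srebf2 read 8.43, 8.61 and 8.38 in transgenic lenses, against 8.52, 8.71 and 8.47 in wild-type lenses, with overlap and a difference of -0.093 (interval -0.34 to 0.15). On a second, dimmer probe set of Srebf2 the values were 7.04, 7.12 and 7.17, against 7.34, 7.29 and 7.30. There the groups did not overlap, and the difference was -0.21. Insig1, whose product holds SREBPs in the endoplasmic reticulum and whose transcript is itself an SREBP target, differed by -0.085 (interval -0.43 to 0.26). Stard4, encoding a carrier that moves cholesterol between membranes, was the 1 sterol member above 0, at 0.097, and averaging its probe sets gave -0.0018.

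**Figure D2:**
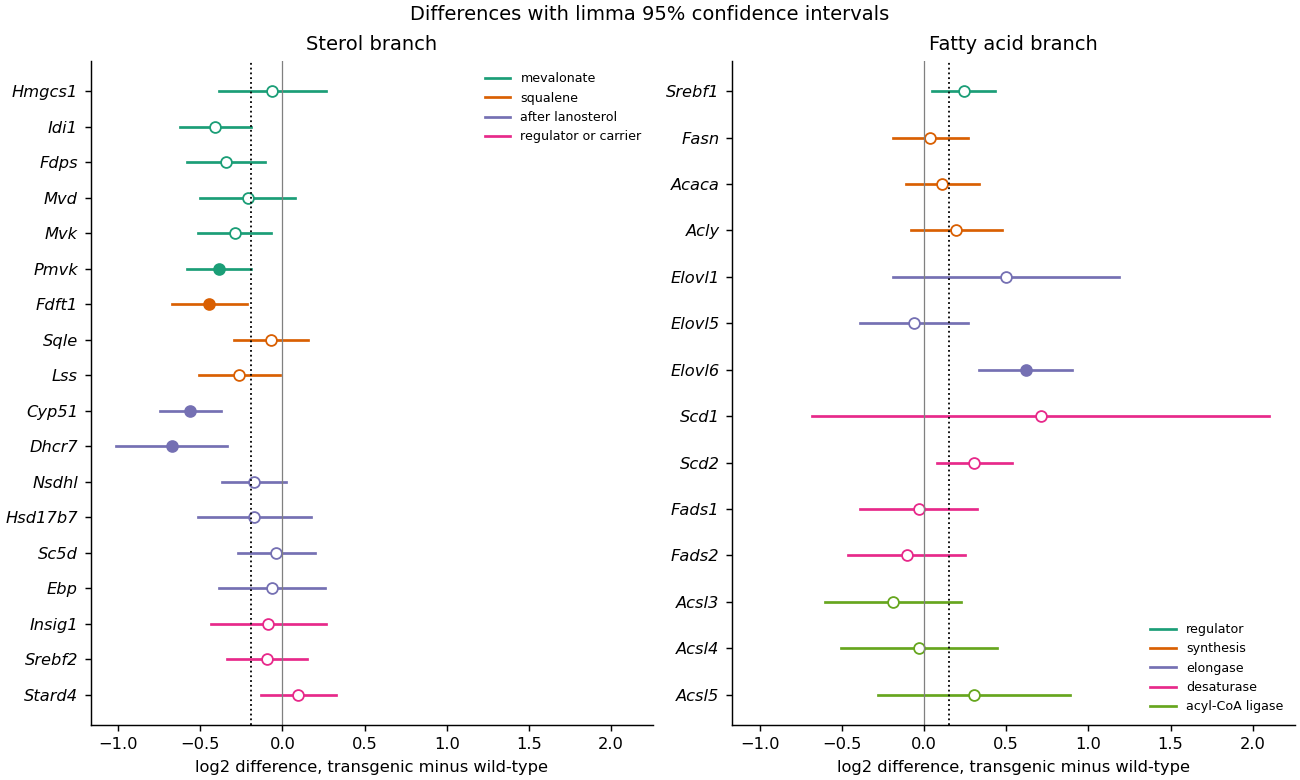
Points give each member's log2 difference, transgenic minus wild-type, with limma's 95% confidence interval, coloured by step of the pathway. Filled points have an adjusted p under 0.05 and dotted lines mark the branch medians of -0.19 and 0.15. The sterol points other than Stard4 lie left of 0, and Elovl6 is the filled point on the right.

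In the fatty acid branch, the enzymes that build palmitate showed small differences above 0. Acly, encoding ATP citrate lyase, which supplies cytosolic acetyl-CoA, differed by 0.20 (limma adjusted p = 0.371). Acaca, encoding acetyl-CoA carboxylase, differed by 0.11 and Fasn, encoding fatty acid synthase, by 0.039. None was called, and the groups overlapped for all 3. The sign of Fasn turned to -0.039 on the values as deposited. Srebf1 read 7.97, 8.06 and 7.95 in transgenic lenses, against 7.75, 7.82 and 7.69 in wild-type lenses. Its groups did not overlap, but the difference of 0.24 ± 0.08 (SE) was not called (limma adjusted p = 0.142).

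Elovl6 encodes the elongase that lengthens palmitate toward stearate. It read 9.29, 9.42 and 9.60 in transgenic lenses, against 8.61, 8.93 and 8.92 in wild-type lenses. All transgenic arrays lay above all wild-type arrays, and Elovl6 rose by 0.62 ± 0.12 (SE; limma adjusted p = 0.0350), a 1.53-fold difference. A second bright probe set of Elovl6 differed by 0.50, and averaging its probe sets gave 0.34, which was not called (limma adjusted p = 0.0517). The call was lost with any 1 array left out (limma adjusted p from 0.0595 to 0.113), with the difference between 0.51 and 0.69.

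Scd2, encoding a stearoyl-CoA desaturase, read 12.80, 12.72 and 12.56 in transgenic lenses, against 12.27, 12.44 and 12.46 in wild-type lenses. The groups did not overlap, and the difference of 0.31 ± 0.10 (SE) was not called (limma adjusted p = 0.125). Its 2 further probe sets differed by 0.26 and 0.33, so all 3 pointed the same way. Fads1 and Fads2, encoding the desaturases of polyunsaturated fatty acids, differed by -0.030 and -0.11 with overlapping groups, and a second probe set of Fads2 differed by -0.40. Elovl5, encoding an elongase of polyunsaturated fatty acids, differed by -0.060, and by 0.39 on a second probe set.

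For 3 fatty acid genes a single array made the difference. Scd1, encoding another stearoyl-CoA desaturase, known for its high level in skin glands and fat, read 4.68 and 5.17 in transgenic replicates 1 and 2 and 7.38 in replicate 3, against 4.98, 4.96 and 5.15 in wild-type lenses. Elovl1, encoding an elongase of very long saturated fatty acids, read 7.99, 8.10 and 9.23, against 7.84, 7.91 and 8.08. Acsl5, encoding an acyl-CoA synthetase, read 7.08, 7.28 and 8.17, against 7.20, 7.18 and 7.24. None of the 3 was called. Their differences were 0.71, 0.50 and 0.30 with all arrays, and -0.11, 0.11 and -0.026 without transgenic replicate 3.

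Markers of other tissues were high on the same array. The summed level of 14 keratinocyte markers (values taken out of the log scale) was 29606 in transgenic replicate 3, against 2144 to 2417 on the other 2 transgenic arrays and 2000 to 3093 on wild-type arrays. Of these, 13 had a difference above 0, and Krt14 read 9.63 in that replicate and 4.64 to 5.07 on the other 5 arrays. The sum of 9 adipocyte markers was 1217 there and 323 to 432 on the other 5 arrays. Adipoq read 7.04 there against 3.32 to 3.72, and Fabp4, Lpl and Cebpa were raised too. Cidec, Retn and Pparg were not highest on that array, and Lep and Ucp1 were nearly level. The sum of 14 skeletal muscle markers was 8636 there against 582 to 795, but Myh1, Myod1, Actn3 and Mb were not raised. For 5 markers of sebaceous and meibomian glands the sum was 591 there and 120 to 142 elsewhere, but Krt79 carried it, at 8.86 there and 5.09 to 5.55 elsewhere. The other 4 (Elovl3, Scd3, Mc5r and Far2) read 4.16 to 5.47 on that array, near background. The part of these tissues in the levels of Scd1, Elovl1 and Acsl5 was not tested.

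**Figure D3:**
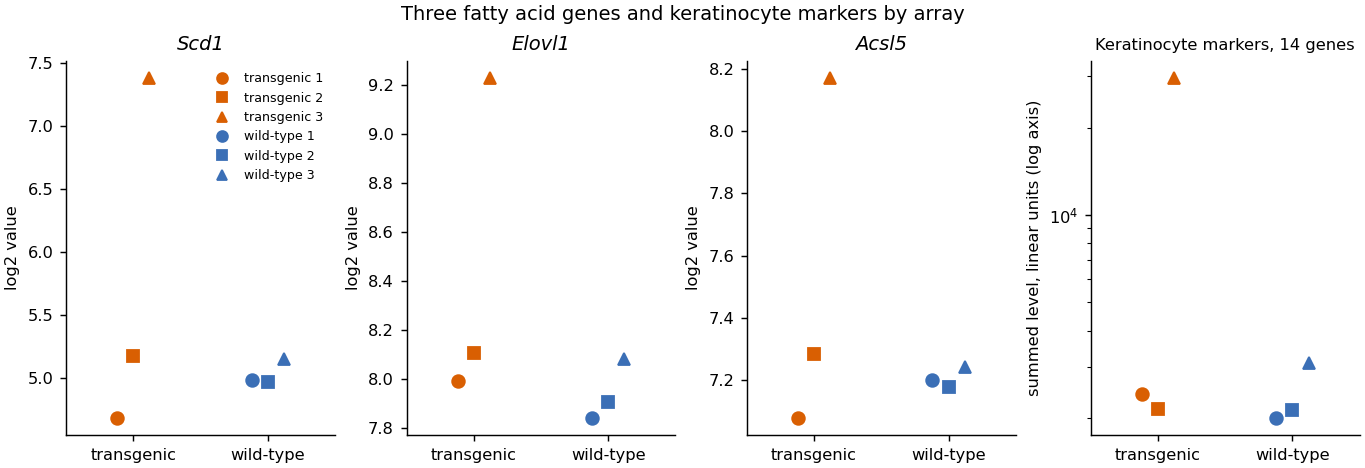
The first 3 panels give log2 values of Scd1, Elovl1 and Acsl5 for each array, transgenic left of wild-type, and the fourth gives the summed linear level of 14 keratinocyte markers on a log axis. In all 4 panels transgenic replicate 3 lies above the other 5 arrays, which lie close together.

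The remaining acyl-CoA synthetase genes, Acsl3 and Acsl4, differed by -0.19 and -0.029, with overlapping groups. Wild-type replicate 1 was the highest array for both. Without it Acsl3 differed by 0.0054 and Acsl4 by 0.18. Acsl4, the dimmest measurement among the members, averaged 5.04 in transgenic and 5.07 in wild-type lenses, below the median over probe sets, 5.34, and background may limit its difference. The wild-type mean of Scd1, 5.03, also lay below that median.

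The branches were also compared array by array. For each array, the median over a branch of the log2 value minus the gene's mean over the 6 arrays was taken. In the sterol branch it was -0.20, -0.15 and -0.049 in transgenic replicates 1 to 3, against 0.021, 0.16 and 0.12 in wild-type replicates 1 to 3. In the fatty acid branch it was -0.11, 0.14 and 0.057, against -0.14, -0.077 and -0.11. The groups did not overlap in the sterol branch, and in the fatty acid branch transgenic replicate 1 lay within the range of the wild-type arrays. Sterol minus fatty acid, the array values were -0.090, -0.29 and -0.11 in transgenic lenses and 0.16, 0.23 and 0.23 in wild-type lenses. The difference between the branches' medians over genes was -0.35 with all arrays, and -0.50 to -0.28 with 1 array left out. No p is given for it, since the members were chosen with results of these data known. Without transgenic replicate 3 the sterol median was -0.27, with 3 genes called lower, and the fatty acid median was 0.063.

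Of 16 neural retina markers 15 had differences below 0, with a median of -0.33, and Elavl4 was called lower, 6.25% of the list against 4.55% of all genes. At an unadjusted p under 0.05 limma put 31.2% of the list lower, against 10.9% of all genes. The array medians of these markers were -0.40, 0.13 and -0.23 in transgenic lenses, against 0.37, 0.29 and -0.017 in wild-type lenses, with overlap. Their summed level was 2247 to 3651 in transgenic and 2798 to 4546 in wild-type lenses, with overlap. Their part in the sterol differences was not tested. Transgenic replicate 2 had the highest median of the fatty acid branch. There, 11 markers of retinal pigment and ciliary epithelium summed to 5390, against 1927 to 2811 on the other 5 arrays. Dct, Pmel, Tyrp1, Tyr and Mlana stood out, with Dct at 10.77 there and 8.81 to 9.80 elsewhere. Rpe65 (4.66), Rlbp1 (6.92) and Lrat (3.73) were not highest on that array, and Best1, Ttr and Oca2 were little above the others. The part of these tissues in the fatty acid values was not tested. In whole lenses, fewer cells of a type and less RNA per cell cannot be told apart. Of 13 lens markers 1 was called higher and 2 lower (23.1% called, against 4.55% of all genes). The 10 not called included Mip at 13.23 to 13.48 and Cryaa, which stood at the same top value of 14.54 on 5 of 6 arrays. Bfsp2 and Lim2, also not called, differed by -0.45 and -0.16, with every transgenic array below every wild-type array. Foxe3, encoding a transcription factor of the lens epithelium, rose by 4.64, while Bfsp1, encoding filensin of fiber cells, fell by 1.66 and Birc7 fell by 1.61. Within its group, transgenic replicate 3 had a mean correlation of 0.986 with its fellow arrays, and the other 5 arrays had 0.990 to 0.994.

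**Figure D4:**
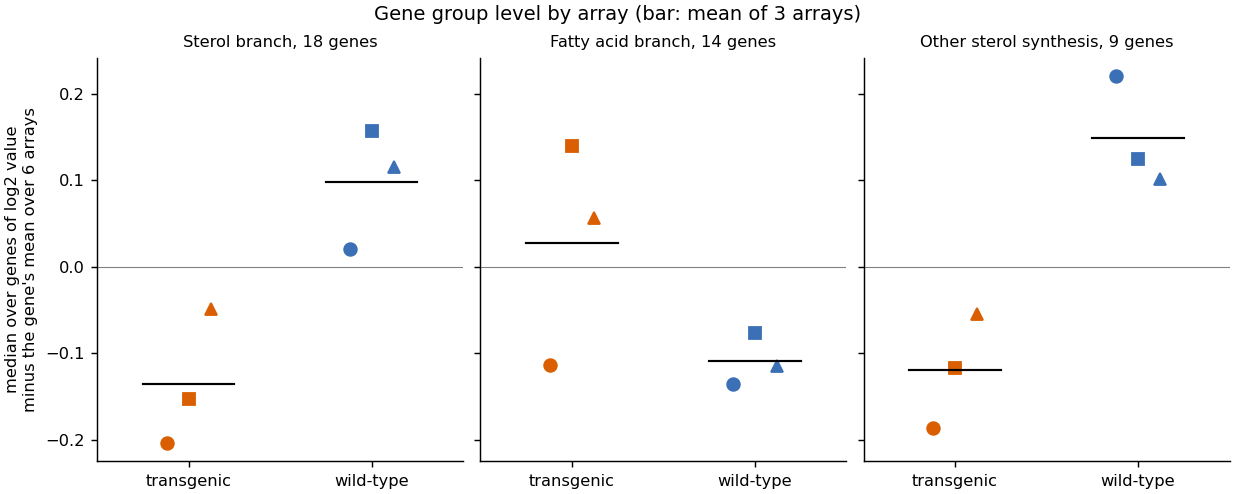
Each point is 1 array (circle, square and triangle for replicates 1 to 3) and gives the median over a gene group of log2 value minus the gene's mean over the 6 arrays, with bars at the mean of 3 arrays and transgenic left of wild-type. Transgenic arrays lie below wild-type arrays in the sterol branch and in the list of other sterol synthesis and related genes. In the fatty acid branch transgenic replicates 2 and 3 lie above the wild-type arrays while replicate 1, at -0.11, lies among them.

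Other genes of sterol synthesis were taken from a list of 14, of which 9 were measured. The list also holds related genes that are not sterol enzymes proper, such as Ggps1 and Dhdds of side branches. All 9 differences were below 0, with a median of -0.26 and no overlap of the groups for 6, but none was called by limma after adjustment, and 6 had an unadjusted p under 0.05. Over all genes 47.7% of differences were below 0. Every transgenic array lay below every wild-type array in 13.5% of all genes, and 10.9% were lower at that unadjusted p. Ggps1, encoding the synthase of geranylgeranyl pyrophosphate, read 8.08, 7.77 and 7.92 in transgenic lenses, against 8.44, 8.30 and 8.35 in wild-type lenses. Its difference of -0.44 was short of the threshold (limma adjusted p = 0.0549). Msmo1, encoding the methylsterol oxidase that acts after Cyp51, differed by -0.33, Dhdds, encoding a subunit of the dolichol-forming enzyme, by -0.31, and Cyb5r3, encoding a cytochrome b5 reductase, by -0.24. On the values as deposited or after shifting arrays to a common median, 2 of the 9 were called lower.

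Among 9 measured genes of SREBP control and SREBP targets, Insig2 rose and 8 were not called (11.1% called, against 4.55% of all genes). Insig2 encodes the relative of Insig1 that also retains SREBPs in the endoplasmic reticulum. It read 9.33, 9.16 and 9.17 in transgenic lenses, against 8.74, 8.77 and 8.76 in wild-type lenses, and rose by 0.46 ± 0.08 (SE; limma adjusted p = 0.0268). Its 2 further probe sets differed by 0.40 and 0.26. The call held without transgenic replicate 3 and was lost without any other single array (adjusted p up to 0.0929). The Insig2 call was also lost after shifting arrays to a common median (adjusted p = 0.0775), with averaged probe sets (0.132) and in the ordinary test (0.0708). Mbtps2, encoding a protease that releases SREBPs, differed by 0.26, and Erlin2, encoding an endoplasmic reticulum protein of membrane protein degradation, by 0.29. Lpin1, encoding a phosphatidate phosphatase, differed by -0.51 with overlapping groups.

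Of 27 measured genes of sterol transport, efflux and oxysterol metabolism, Cyp7b1 fell and 26 were not called (3.7% called, against 4.55% of all genes). Cyp7b1 encodes the hydroxylase that breaks down oxysterols, the oxidised forms of cholesterol. It read 6.39, 6.24 and 6.18 in transgenic lenses, against 7.54, 7.42 and 7.57 in wild-type lenses. The groups were far apart, and Cyp7b1 fell by 1.24 ± 0.09 (SE; limma adjusted p = 0.000622), a 2.36-fold difference. A second bright probe set differed by -1.37, and the call held with any 1 array left out (adjusted p up to 0.00618). Stard5, Osbpl2 and Gramd1c, which encode sterol or lipid carriers, differed by 0.49, 0.35 and 0.47 and were not called. The list's median was 0.10.

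Fatty acid supply and elongation had 29 measured genes, of which 2 rose and 1 fell (10.3% called, against 4.55% of all genes). Mid1ip1 encodes a partner of acetyl-CoA carboxylase that promotes its assembly into active polymers. It read 9.33, 9.42 and 9.38 in transgenic lenses, against 8.74, 8.68 and 8.73 in wild-type lenses, and rose by 0.66 ± 0.08 (SE; limma adjusted p = 0.00460). Thrsp, its relative, went the other way at -0.57 and was not called (adjusted p = 0.0965). Fads3, encoding a desaturase related to Fads1 and Fads2, read 8.50, 8.54 and 8.58, against 7.82, 7.97 and 7.96, and rose by 0.62 ± 0.08 (SE; limma adjusted p = 0.00888). Its 2 further probe sets differed by 0.86 and 0.64.

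Tecrl, whose product resembles the enoyl-CoA reductase of fatty acid elongation, had the largest fall of all the lipid genes considered. It read 4.55, 4.65 and 4.56 in transgenic lenses, against 7.18, 7.50 and 7.40 in wild-type lenses, and fell by 2.77 ± 0.10 (SE; limma adjusted p = 3.78e-05). Its transgenic values were under 5.34, the median over probe sets, and background may limit the fold. Tecr itself, encoding the reductase of elongation, differed by -0.044, and was not called. The 3 calls of this list held with any 1 array left out, and that of Fads3 was lost in the ordinary test (adjusted p = 0.0505). Fa2h, encoding a fatty acid hydroxylase, differed by 0.34 and was not called (limma adjusted p = 0.0618).

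Among 13 measured genes of fatty acid uptake and binding, 1 rose and 1 fell (15.4% called, against 4.55% of all genes), and these were relatives. Fabp5 encodes the epidermal type of fatty acid binding protein. It read 12.48, 12.20 and 12.29 in transgenic lenses, against 13.62, 13.52 and 13.55 in wild-type lenses, and fell by 1.24 ± 0.10 (SE; limma adjusted p = 0.000703). A second bright probe set differed by -2.00. Fabp3, encoding the heart type of fatty acid binding protein, read 7.66, 7.40 and 7.80, against 6.52, 6.58 and 6.54, and rose by 1.07 ± 0.11 (SE; limma adjusted p = 0.00298). A dimmer probe set of Fabp3 differed by 0.015, and averaging its probe sets gave 0.54, which was still called (limma adjusted p = 0.0175). Both calls held with any 1 array left out, and that of Fabp3 was lost in the ordinary test (0.0667). Dbi, encoding an acyl-CoA binding protein, differed by 0.33, and Slc27a5, encoding a fatty acid transporter of liver, by 0.18. Neither was called.

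Of 27 measured genes of fatty acid oxidation, Cpt1a fell and 26 were not called (3.7% called, against 4.55% of all genes). Cpt1a encodes the carnitine palmitoyltransferase that admits long-chain fatty acids to mitochondria and is inhibited by malonyl-CoA, the product of acetyl-CoA carboxylase. It read 8.71, 8.75 and 8.74 in transgenic lenses, against 9.23, 9.30 and 9.40 in wild-type lenses, and fell by 0.58 ± 0.08 (SE; limma adjusted p = 0.0110). A dimmer probe set differed by -0.18, and the call was lost without transgenic replicate 2, wild-type replicate 2 or wild-type replicate 3 (adjusted p up to 0.0567). Averaging the probe sets of Cpt1a gave -0.30, which was not called (limma adjusted p = 0.0975), and the call was lost in the ordinary test (0.0505). Cpt2, encoding the partner enzyme on the inner membrane, differed by 0.63 without overlap of the groups and was not called (limma adjusted p = 0.0605). Ehhadh and Acaa1a, encoding enzymes of peroxisomal oxidation, differed by -0.56 and 0.43 and were not called. The list's median was 0.085, with 15 differences above 0 and 12 below.

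**Figure D5:**
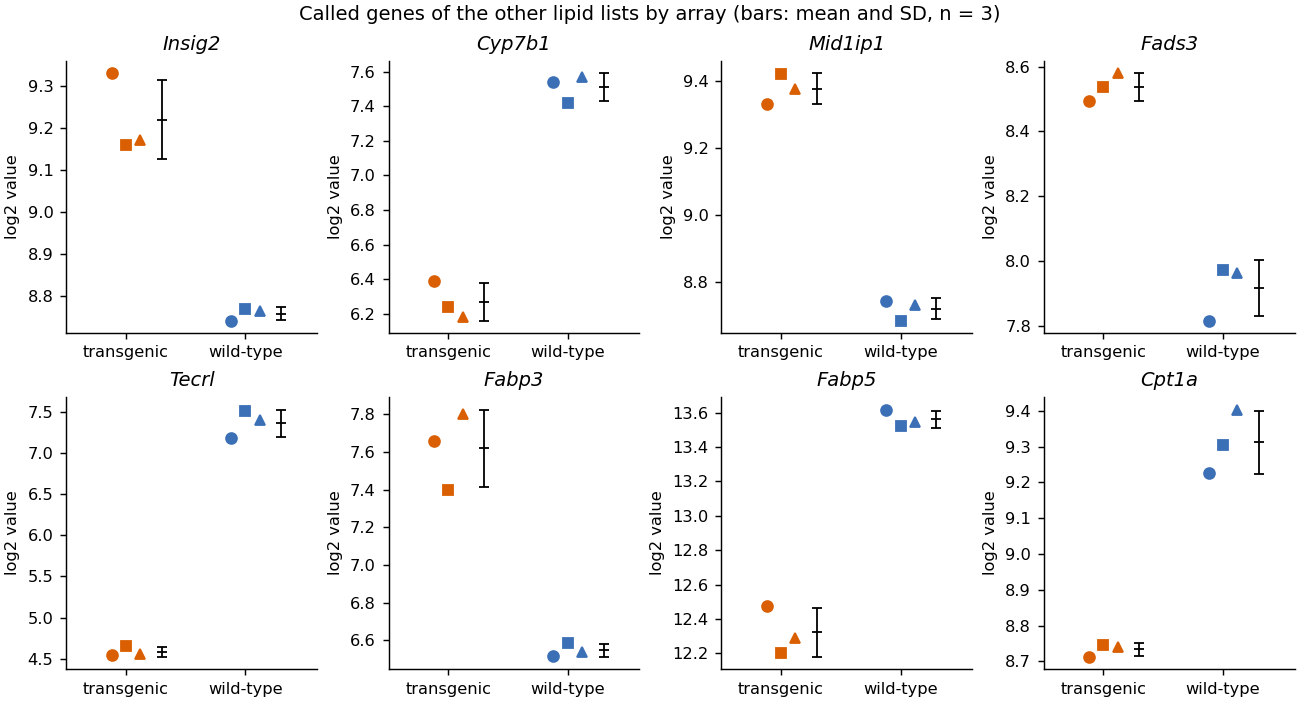
Log2 values by array for the 8 called genes of the other lipid lists, transgenic left of wild-type, with the mean and SD (n = 3) beside each group and an axis of its own for each gene. In every panel the groups are apart, Cyp7b1, Tecrl, Fabp5 and Cpt1a with transgenic arrays below, and Insig2, Mid1ip1, Fads3 and Fabp3 with transgenic arrays above.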

How the data were processed

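The authors deposited 1 log2 value per probe set and array; that the values are log2 was read from their range, and how they were summarised and normalised is not stated in the labels. After 64 control probe sets were set aside, 45037 remained, of which 34945 had 1 gene symbol in the platform annotation from GEO; gene identifiers gave current symbols from RefSeq's table of GRCm38.p6 for 99.4% of them. Arrays were quantile normalised in limma 3.58.1 (R 4.3.3), because upper quartiles differed by 0.120. The genotypes were compared with lmFit and eBayes over 18193 genes, with Benjamini-Hochberg adjustment over all of them and a threshold of 0.05, after the fit was tested on simulated data. No count depth applies to arrays, and their number limits the precision. Errors of differences are limma's moderated SE.

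All 33 members were named. Of the other lipid lists, called genes and up to 4 with the smallest p were named, and Thrsp and Tecr were added after their values were seen. The members and lists were chosen with earlier results of these data known. Alternatives were the values as deposited, a common median, no dim probe sets, averaged probe sets, each probe set tested alone, other variance models, array weights, a replicate block and each array left out. Nothing in the labels pairs the replicate numbers.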

Additional observations from a re-analysis of the deposited data

How the results depend on the processing

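No setting gave a sterol gene called higher or a fatty acid gene called lower. Sterol genes called lower were 0 to 6 over the settings that kept all 6 arrays, and 0 to 3 with 1 array left out. They numbered 5 on the values as deposited, 2 with averaged probe sets, 1 with an ordinary test and 0 with the replicate block. Fatty acid genes called higher were 2 with trended variances, 0 with averaged probe sets, the ordinary test or the replicate block, and 0 with any 1 array left out. Over all genes, 45 were higher and 79 lower in the ordinary test, 599 and 790 with array weights, and 69 and 154 with the replicate block. With 1 array left out, 70 to 249 were higher and 156 to 385 lower. With the block the calls of Insig2 (limma adjusted p = 0.0874) and Cpt1a (0.0562) were lost as well. The replicate numbers showed no clear pairing of the arrays. Deviations of same-numbered arrays from their group means correlated by -0.052, 0.084 and 0.028 over genes. Differently numbered arrays gave -0.119 to 0.075. With 3 arrays per group these values cannot exclude pairing. The sterol median of -0.19 was -0.29 after shifting arrays to a common median, -0.28 with array weights, -0.076 with averaged probe sets, and -0.29 to -0.15 with 1 array left out. The fatty acid median of 0.15 was 0.056 after the shift and 0.063 to 0.22 with 1 array left out. Their difference was -0.44 with array weights and -0.50 to -0.28 with 1 array left out. Signs of uncalled members turned on the values as deposited for Fasn (-0.039) and Acsl4 (0.0081), after the shift for Fasn (-0.075), with averaged probe sets for Hmgcs1 (0.041), Hsd17b7 (0.071), Stard4 (-0.0018), Acaca (-0.0010), Elovl5 (0.17) and Fads1 (0.25), and with array weights for Elovl5 (0.023), Fads2 (0.0038) and Acsl4 (0.065). With 1 array left out, signs also turned for Hmgcs1 (-0.15 to 0.10), Sqle (-0.13 to 0.0096), Sc5d (-0.12 to 0.031), Ebp (-0.21 to 0.061), Insig1 (-0.24 to 0.00039), Fasn (-0.038 to 0.10), Scd1 (-0.11 to 1.24), Elovl5 (-0.15 to 0.058), Fads1 (-0.15 to 0.14), Fads2 (-0.26 to 0.00089), Acsl3 (-0.30 to 0.0054), Acsl4 (-0.20 to 0.18) and Acsl5 (-0.026 to 0.52). Counts of the other lipid lists in these settings were added after seeing the data. The causes were not tested, and fits that leave 1 array out also have fewer arrays.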

Other observations

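Genes that build membrane lipids other than cholesterol were measured too. Of 16 sphingolipid synthesis genes limma called none after adjustment. At an unadjusted p under 0.05, limma put 3 (18.8%) higher and 0 lower. Of all genes 11.5% were higher and 10.9% lower at that p, 22.4% in all. In this list 12 differences were above 0 and the median was 0.18, against 0.011 over all genes. Cers5, encoding a ceramide synthase, averaged 9.39 ± 0.13 in transgenic and 9.02 ± 0.02 in wild-type lenses (SD, n = 3 each). Its difference of 0.37 was not called (limma adjusted p = 0.0657), although the groups did not overlap. Cers6, encoding another ceramide synthase, differed by 0.40, and Sptlc1, encoding a subunit of the enzyme that starts the pathway, by 0.30. Ugcg, encoding glucosylceramide synthase, differed by 0.30 with overlapping groups. No gene of this list had every transgenic array below every wild-type array, and 4 had the opposite pattern, which 15.3% of all genes showed.

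Of 29 genes of glycerolipid and phospholipid synthesis limma called none after adjustment and 6 at an unadjusted p under 0.05 (5 higher and 1 lower, 20.7%, against 22.4% of all genes), with 18 differences above 0 and a median of 0.082. Mogat2, encoding a monoacylglycerol acyltransferase, had the smallest p of the list, with a difference of 0.37 and no overlap (limma adjusted p = 0.0696). Gpam, encoding a mitochondrial glycerol phosphate acyltransferase, differed by 0.23. Ptdss2, encoding a phosphatidylserine synthase, differed by 0.29 and Gpat4, encoding a glycerol phosphate acyltransferase, by -0.31. Without transgenic replicate 3, 1 gene of this list was called lower, and with array weights 1 was called higher. In the sphingolipid list 1 was called higher with trended variances and with array weights.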
